A study of Mus musculus with 20 samples.

Results

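Transcripts of 10 macrophage identity genes were measured by RNA sequencing in kidneys of aged mice with a transplanted blood system. The genes were Adgre1, Mrc1, Cd163, Clec7a, Cd68, Mpeg1, Ms4a7, Ms4a6c, Ms4a4a and Aif1, taken by symbol from 2 separate tables of gene counts that named 26608 and 30809 genes. Of the 10, 9 were found under these symbols in the first table, and Adgre1 was found under its older symbol Emr1, a synonym listed by RefSeq. The second table listed all 10. The first table compared 6 kidneys of mice whose blood system carried LOY, a state in which blood-forming cells have lost their Y chromosome, with 6 kidneys of mice given a Control blood system. The second compared 4 kidneys of LOY mice given ABT263 with 4 kidneys of LOY mice given a control compound, so that all 8 of its mice carried the LOY blood system. ABT263 (navitoclax) is a senolytic, a compound that kills senescent cells by blocking survival proteins of the BCL-2 family. Each library was 1 kidney sample of 1 numbered animal. Numbers 8, 9, 10 and 18 mark LOY animals in both tables, and the labels do not say whether these are the same animals. Numbers 16 and 17 mark Control animals in the first table and LOY animals given ABT263 in the second. A shared number alone therefore does not mark a shared animal. The sources used here do not give the strain, exact age, dose, the way LOY was produced or the share of blood cells that carried it. Kidney macrophages of the host can survive a bone marrow transplant, and these libraries do not separate host from donor transcripts.

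Macrophages are phagocytes that clear dead cells, debris and microbes, present antigen and take part in tissue repair. The kidney holds a resident network of them between its tubules, and monocytes of the blood can enter the tissue and become macrophages there. Many of their genes are driven by the transcription factor PU.1, encoded by Spi1, and their survival depends on the receptor encoded by Csf1r and its ligands, encoded by Csf1 and Il34. The 10 genes stand for different parts of that identity: surface receptors (Adgre1, Mrc1, Cd163, Clec7a), the lysosome and phagosome (Cd68, Mpeg1), the membrane-spanning MS4A family (Ms4a7, Ms4a6c, Ms4a4a) and the actin cytoskeleton (Aif1).

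Total gene counts ran from 13332563 to 19386408 per kidney in the LOY table and from 14587809 to 20791633 in the ABT263 table. The tissue label was met by its markers: 20 proximal tubule genes together gave 32238 to 71910 CPM in LOY kidneys and 48360 to 55749 CPM in Control kidneys, CPM being each gene's count relative to a TMM-scaled library total. The 10 macrophage identity genes together gave 98.0 to 183 CPM in LOY kidneys and 54.9 to 85.6 CPM in Control kidneys, so they were a small share of the RNA of each kidney. In whole tissue, fewer cells of a type and less RNA per cell cannot be told apart. Precision was limited by counting for Ms4a4a (1 to 31 counts per LOY kidney and 1 to 13 per Control kidney) and Cd163 (5 to 39 and 6 to 20 counts).

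The stretch of 250 bases before the transcription start is shown for 4 genes, Mrc1, Aif1, Mpeg1 and Ms4a6c. In these genes all 6 LOY values lay above all 6 Control values. They were chosen by that difference, and the part of their promoters in it was not tested. Sequences are from RefSeq on GRCm38.p6, written along the strand of the gene. They cover chr2:14229164-14229413 (plus strand) for Mrc1, chr17:35176053-35176302 (minus strand) for Aif1, chr19:12460520-12460769 (plus strand) for Mpeg1 and chr19:11469118-11469367 (plus strand) for Ms4a6c. Capitals mark GAGGAA, the core letters of a PU.1 site, or its reverse complement TTCCTC. The windows end at RefSeq starts, which differ from the GENCODE M21 gene bounds given below. Those of Mrc1, Aif1 and Ms4a6c reach into these bounds, and the capitals of Aif1 lie within them.
Mrc1: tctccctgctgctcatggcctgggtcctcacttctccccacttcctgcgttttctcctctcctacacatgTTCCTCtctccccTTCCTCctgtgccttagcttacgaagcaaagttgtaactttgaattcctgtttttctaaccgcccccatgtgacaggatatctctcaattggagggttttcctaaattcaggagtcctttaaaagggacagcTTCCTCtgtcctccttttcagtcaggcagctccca
Aif1: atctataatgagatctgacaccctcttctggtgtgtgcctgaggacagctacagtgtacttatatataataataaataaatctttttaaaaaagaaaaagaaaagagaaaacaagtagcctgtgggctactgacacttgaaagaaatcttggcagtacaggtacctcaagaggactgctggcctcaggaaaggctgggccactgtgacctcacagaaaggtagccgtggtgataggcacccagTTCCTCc
Mpeg1: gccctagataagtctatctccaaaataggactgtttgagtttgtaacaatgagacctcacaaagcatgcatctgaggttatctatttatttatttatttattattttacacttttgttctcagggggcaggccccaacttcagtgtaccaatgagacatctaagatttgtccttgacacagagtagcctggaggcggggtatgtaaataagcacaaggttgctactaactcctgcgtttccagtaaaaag
Ms4a6c: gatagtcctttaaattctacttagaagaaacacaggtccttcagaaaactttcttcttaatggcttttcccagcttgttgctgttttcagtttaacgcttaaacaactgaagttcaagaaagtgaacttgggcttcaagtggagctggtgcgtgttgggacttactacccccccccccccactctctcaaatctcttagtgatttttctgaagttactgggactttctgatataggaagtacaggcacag
Such windows were at hand for 9 of the 10 members, all but Adgre1. The letters GAGGAA were present, on either strand, in 4 of these 9 (44.4%), namely Mrc1, Aif1, Cd68 and Clec7a, against 6986 of 27025 genes (25.9%) with windows of the same length. Mrc1 held 3 matches and the other 3 members 1 match per window. Among 20 other macrophage genes with a window, 11 (55.0%) held the letters, and among 17 proximal tubule genes 5 did (29.4%). The windows of Mpeg1 and Ms4a6c, printed above, held none. A match describes letters only, not a bound site.

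The first comparison asked how kidney transcripts differ under a LOY blood system. Macrophage identity genes were higher in LOY kidneys: of the 9 that had enough counts to be tested, 5 rose and 0 fell, and the other 4 had positive changes that did not pass. The genes that rose were Mrc1, Mpeg1, Ms4a7, Ms4a6c and Aif1, by 0.91 to 1.34 on the log2 scale. The background was 1.18% of 14978 tested genes past the same threshold, an edgeR quasi-likelihood adjusted p of 0.05, with 1.11% past it as higher and 0.0601% as lower; 52.3% of all tested genes had a positive change, as did 9 of these 9. The median log2 fold change of the 9 members was 1.02, against 0.02 over all tested genes. For 4 members, Mrc1, Mpeg1, Ms4a6c and Aif1, the lowest LOY kidney lay above the highest Control kidney, which was so for 1.35% of all tested genes. The genes were chosen with earlier results of these data known, and counts and medians are given here as description.

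**Figure D1:**
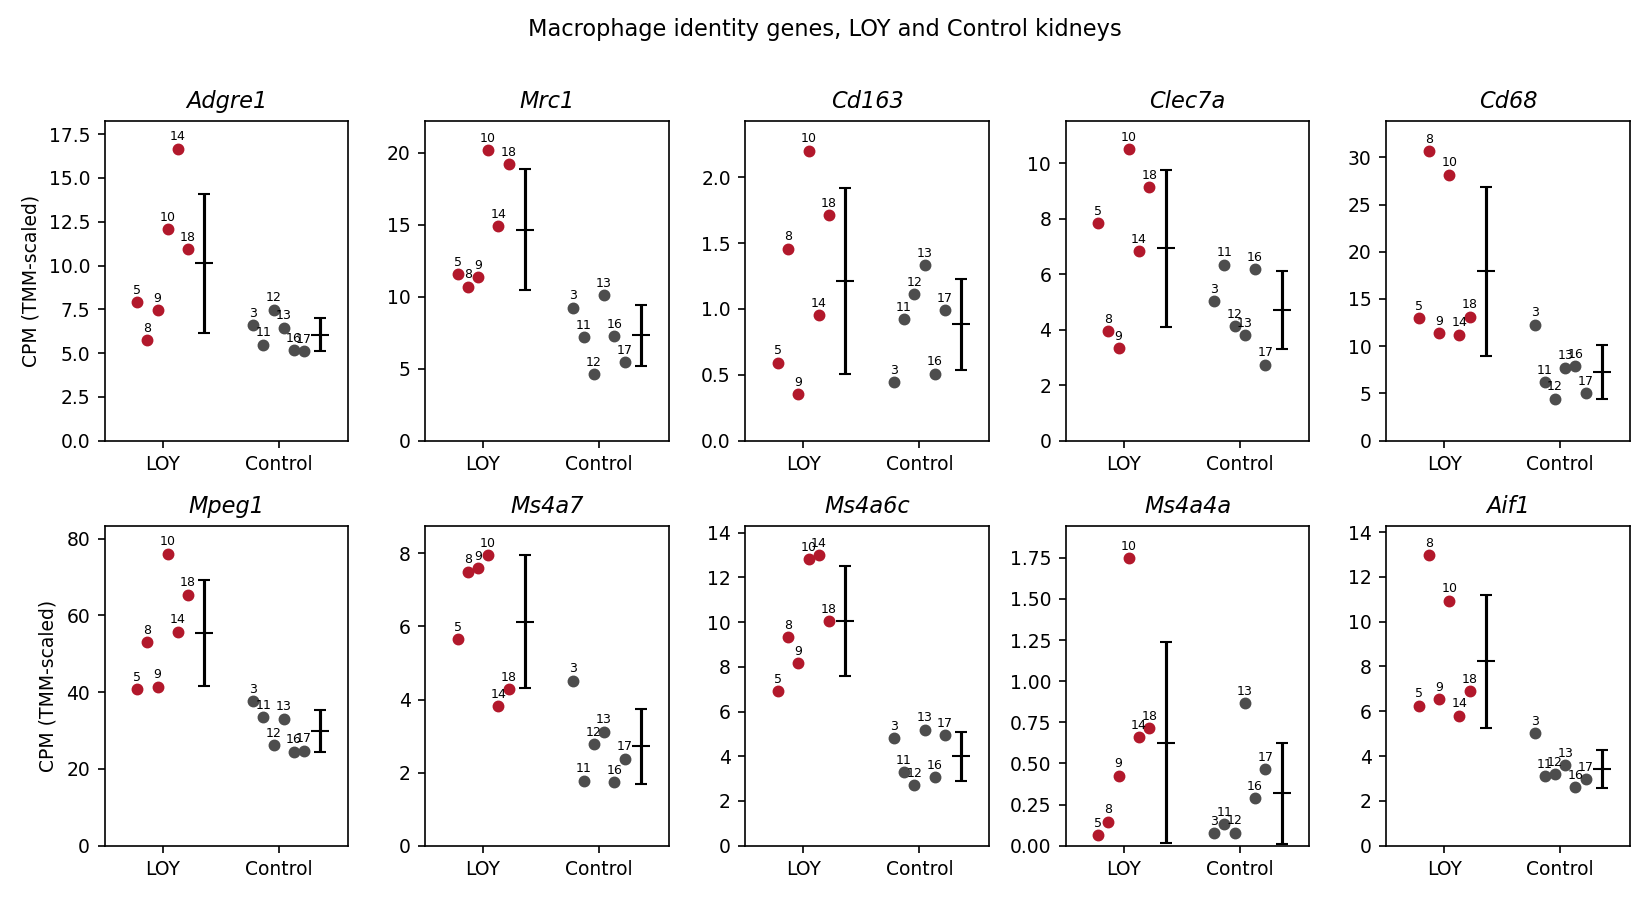
TMM-scaled CPM (linear axis) of the 10 macrophage identity genes in each LOY kidney (red, left) and each Control kidney (grey, right), labelled with the animal number; the bar is the mean with SD, n = 6 each. Points of Mrc1, Mpeg1, Ms4a6c and Aif1 do not overlap between the groups, while Adgre1, Cd163, Clec7a, Cd68, Ms4a7 and Ms4a4a overlap.

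Among the surface receptors, Mrc1 rose. Mrc1 (chromosome 2, 14229392 to 14332057, GRCm38) encodes the mannose receptor CD206, which takes up glycoproteins with exposed mannose. Its level was 10.7, 13.2 and 20.2 CPM (lowest, median and highest) in LOY kidneys and 4.61, 7.23 and 10.1 CPM in Control kidneys. All LOY kidneys lay above all Control kidneys, with LOY animals 10 and 18 highest. The log2 fold change was 1.02 ± 0.22 (SE, n = 6 each; edgeR adjusted p = 0.0432). Adgre1 (chromosome 17, 57358691 to 57483527) encodes F4/80, the adhesion receptor by which mouse macrophages are most often recognised. It had 5.75, 9.42 and 16.7 CPM in LOY kidneys, and 5.12, 5.96 and 7.47 CPM in Control kidneys. LOY animal 14 was the highest kidney and 4 of 6 LOY kidneys lay above every Control kidney, but LOY animals 8 and 9 lay within the Control range. The log2 fold change of 0.77 ± 0.23 did not pass (edgeR adjusted p = 0.107), whereas it passed with DESeq2 (adjusted p = 0.0355), with voom (0.0198) and in edgeR without LOY animal 8 (0.0435).

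Clec7a (chromosome 6, 129461591 to 129472779) encodes dectin-1, a receptor for fungal beta-glucan; GENCODE M21 annotates it as a polymorphic pseudogene on this genome. Its level was 3.34, 7.33 and 10.5 CPM in LOY kidneys and 2.73, 4.58 and 6.34 CPM in Control kidneys. The groups overlapped, with LOY animals 8 and 9 inside the Control range (log2 fold change 0.59 ± 0.29, edgeR adjusted p = 0.240). Cd163 (chromosome 6, 124304656 to 124330527) encodes the scavenger receptor for haemoglobin bound to haptoglobin. It had 0.355, 1.21 and 2.20 CPM in LOY kidneys, and 0.444, 0.957 and 1.33 CPM in Control kidneys. The lowest kidney of all was LOY animal 9 and the highest LOY animal 10, and the log2 fold change of 0.49 ± 0.43 did not pass (edgeR adjusted p = 0.486).

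Of the genes of the lysosome and phagosome, Mpeg1 rose. Mpeg1 (chromosome 19, 12460779 to 12465283) encodes perforin-2, which forms pores in the membranes of engulfed bacteria, and was the most abundant member by CPM. It had 40.7, 54.4 and 76.1 CPM in LOY kidneys, and 24.5, 29.7 and 37.6 CPM in Control kidneys. No kidney overlapped between the groups, and the log2 fold change was 0.91 ± 0.17 (edgeR adjusted p = 0.0275). Cd68 (chromosome 11, 69664213 to 69666153) encodes macrosialin, a heavily glycosylated protein of the lysosomal membrane. Its level was 11.2, 13.0 and 30.7 CPM in LOY kidneys and 4.45, 6.96 and 12.3 CPM in Control kidneys. LOY animals 8 (30.7 CPM) and 10 (28.2 CPM) stood far above the others, and LOY animals 9 and 14 lay below Control animal 3. The change of Cd68 was among the largest of the members, 1.32 ± 0.32, and its edgeR adjusted p was 0.0543, against 0.00264 with DESeq2 and 0.00801 with voom. LOY animals 8 and 10 also stood apart in proximal tubule genes: the median deviation of those 20 genes from their own means (log2 CPM) was -0.66 and -0.98 in them, against -0.12 to 0.14 in the other LOY kidneys and 0.01 to 0.50 in Control kidneys. The summed level of the 20 genes was lowest in animal 10 (32238 CPM) but highest of all 12 kidneys in animal 8 (71910 CPM). The part of this in Cd68 and Aif1 was not tested. Without LOY animals 8 and 10 the change of Cd68 was 0.75 (adjusted p = 0.171), and of the members only Ms4a6c then passed. These animals were the highest in Cd68 and Aif1, so leaving them out lowers both changes whatever their tubule genes.

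Of the MS4A genes, Ms4a6c and Ms4a7 rose. These genes lie in 1 cluster on chromosome 19 and encode small proteins that cross the membrane several times. Ms4a6c (11469366 to 11482192) had 6.91, 9.68 and 13.0 CPM in LOY kidneys, and 2.70, 4.05 and 5.19 CPM in Control kidneys. No kidney overlapped between the groups. Its log2 fold change of 1.34 ± 0.22 was the largest of the 9 tested members and had the lowest adjusted p (edgeR, 0.0250). An antisense transcript, BE692007, overlaps exons of Ms4a6c, and whether the counting used strand is not stated; the antisense gene held 30 counts over all LOY kidneys and 15 over all Control kidneys.

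Ms4a7 (11321039 to 11336146) had 3.82, 6.58 and 7.95 CPM in LOY kidneys, and 1.74, 2.58 and 4.51 CPM in Control kidneys. LOY animals 5, 8, 9 and 10 lay above all Control kidneys, while LOY animals 14 and 18 lay below Control animal 3. The log2 fold change was 1.19 ± 0.27 (edgeR adjusted p = 0.0467), the highest adjusted p of the 5 calls. The call of Ms4a7 was close to the threshold: its edgeR adjusted p was 0.0509 with median-ratio factors, 0.0526 with library totals alone, 0.0549 with no filter and 0.0521 among genes averaging at least 1 CPM, but 0.00211 with DESeq2 and 0.00950 with voom. Among the animals numbered above 10 alone the change was 0.81 (adjusted p = 0.187). Ms4a4a (11375523 to 11392790), whose protein partners dectin-1 on macrophages, was below the count filter with 64 counts over the LOY kidneys and 29 over the Control kidneys. Its level was 0.0658, 0.543 and 1.75 CPM in LOY kidneys and 0.0740, 0.211 and 0.864 CPM in Control kidneys, and the groups overlapped.

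Aif1 (chromosome 17, 35170991 to 35176068) encodes IBA1, an actin-bundling protein of ruffling phagocyte membranes. It had 5.80, 6.72 and 13.0 CPM in LOY kidneys, and 2.61, 3.14 and 5.03 CPM in Control kidneys. All LOY kidneys lay above all Control kidneys, with LOY animals 8 and 10 apart from the other 4 LOY kidneys, which spanned 5.80 to 6.90 CPM. Aif1 rose by 1.29 ± 0.24 on the log2 scale (edgeR adjusted p = 0.0290).

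**Figure D2:**
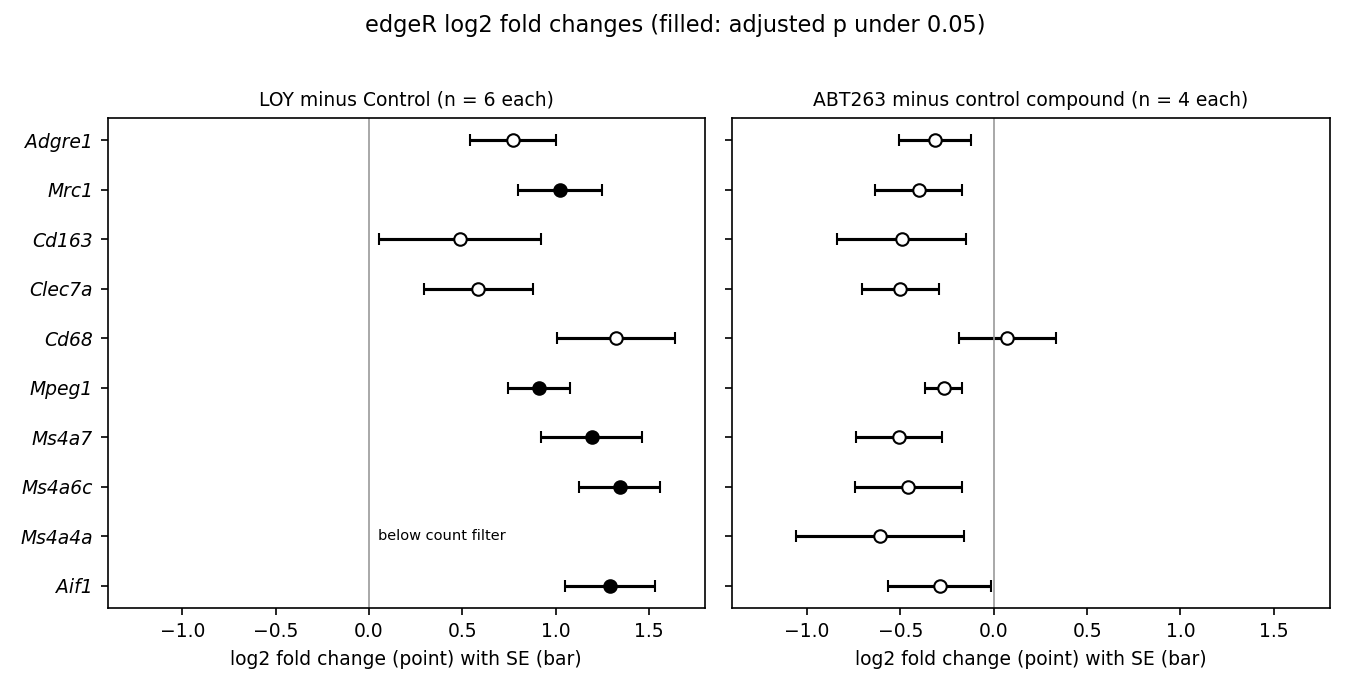
Log2 fold changes of the macrophage identity genes from edgeR (point) with SE (bar), LOY minus Control on the left and ABT263 minus control compound on the right; filled points passed an adjusted p of 0.05. The LOY points lie between 0.49 and 1.34 with 5 filled; the ABT263 points lie between -0.61 and 0.07 with 0 filled.

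The count of 5 depended on single kidneys: without LOY animal 10 or without Control animal 11, 12, 16 or 17, 0 members passed, and up to 6 passed with other kidneys left out. In those same 5 fits 0 to 3 genes of the whole table passed. The log2 fold changes moved less, the median staying between 0.90 and 1.13 as each kidney was left out. Animal numbers were unevenly split, with 4 of 6 LOY kidneys and 1 of 6 Control kidneys numbered 10 or lower; the labels do not say what the number stands for. With a term for a number above 10 the median was 0.91, and 0 members and 0 genes of the whole table passed. Among the animals numbered above 10 alone (LOY 14 and 18 against 5 Control) the median was 1.03 and 6 passed, of 451 genes that passed in the whole table, including Adgre1 (1.24, adjusted p = 0.00337) and Cd68 (0.99, adjusted p = 0.0227).

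The members did not single out the same LOY kidney. The highest of all 12 kidneys was LOY animal 10 for 6 members, LOY animal 8 for Cd68 and Aif1, and LOY animal 14 for Adgre1 and Ms4a6c. LOY animal 8, highest in Cd68, had the lowest Adgre1 of the LOY kidneys. The median deviation of the 10 members from their own means (log2 CPM) was 0.14 to 1.02 in LOY kidneys and -0.68 to -0.10 in Control kidneys. LOY animal 10 was above the mean for 10 of 10 members, as was LOY animal 18, and LOY animals 5, 8, 9 and 14 for 7 to 9.

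**Figure D3:**
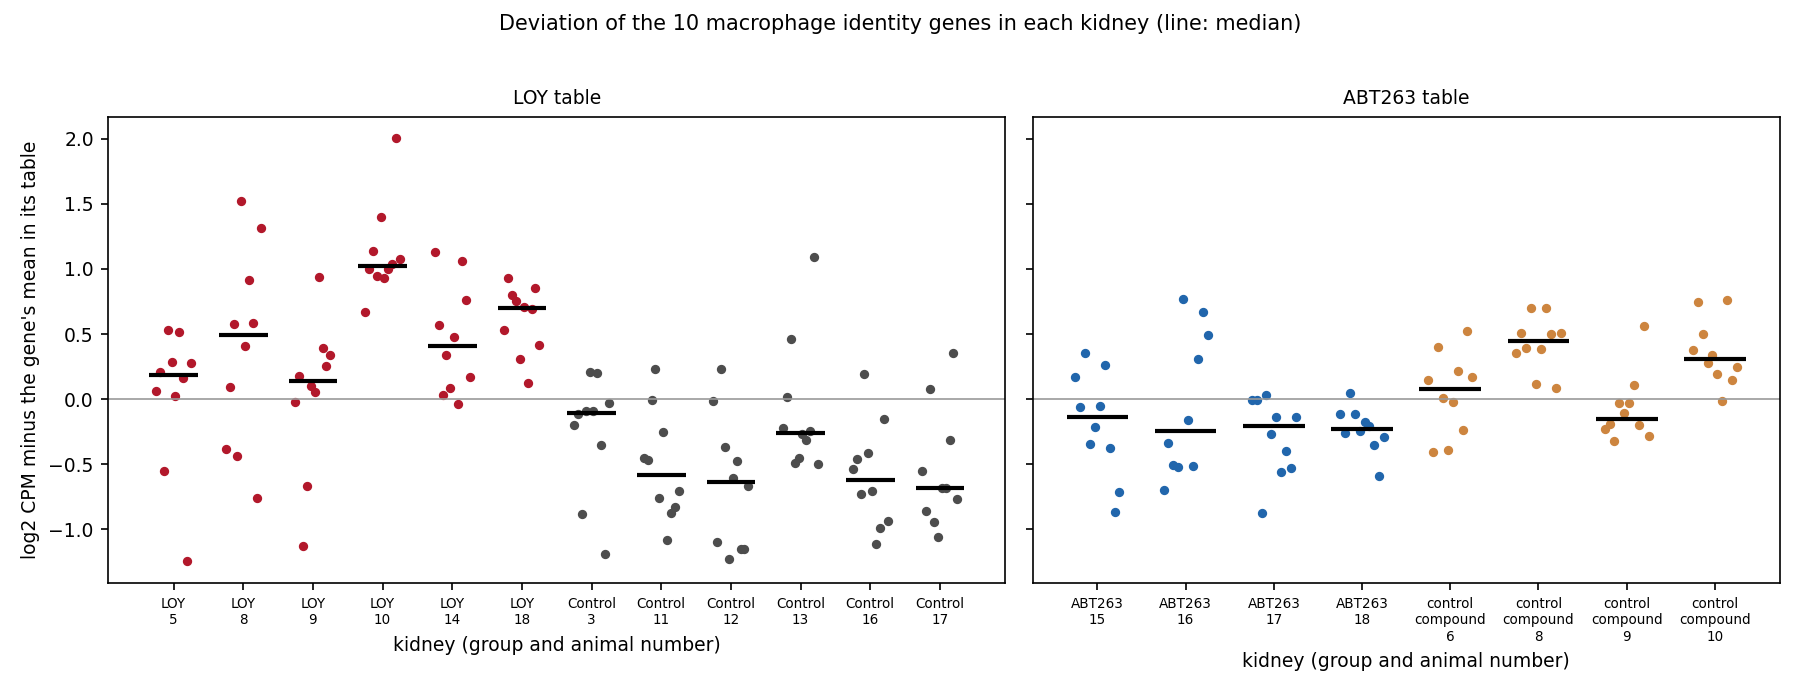
Log2 CPM of each of the 10 members minus that gene's mean over the kidneys of its table (points; linear axis in log2 units), by kidney, with the median as a line; LOY then Control on the left, ABT263 then control compound on the right. Medians are positive in the 6 LOY kidneys (0.14 to 1.02) and negative in the 6 Control kidneys (-0.68 to -0.10); in the other table they are negative in the 4 ABT263 kidneys and positive in 3 of 4 control-compound kidneys.

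Whether a member moved by more than the F4/80 gene was asked within kidneys, as log2 of its CPM over that of Adgre1. The ratio of Ms4a6c to Adgre1 averaged 0.04 ± 0.36 in LOY kidneys and -0.61 ± 0.47 in Control kidneys (SD, n = 6 each), a difference of 0.65 (exact two-sided permutation p = 0.0173, adjusted p = 0.156 over 9 ratios). It was the largest of the 9 differences, and 0 of 9 passed. With Csf1r in place of Adgre1, 6 of 10 members passed, led by Ms4a6c (1.29), Cd68 (1.21) and Aif1 (1.18), each with an adjusted exact permutation p of 0.00722. Csf1r itself had 106 ± 15.0 CPM in LOY kidneys and 104 ± 11.5 CPM in Control kidneys (log2 fold change 0.05 ± 0.11, edgeR adjusted p = 0.817). The ratios to Csf1r therefore largely repeat the members' own changes (Ms4a6c 1.34, Cd68 1.32, Aif1 1.29). Their p-values were adjusted over 10 ratios and not over all genes, so they are no separate evidence for Cd68. With Ptprc, the CD45 gene of all leukocytes, as the base, a choice made after seeing these ratios, 0 of 10 passed; Ptprc rose by 0.81 ± 0.14 (edgeR adjusted p = 0.0250).

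Levels of different members were compared per kilobase of annotated exon. In LOY kidneys the order was Cd68 (14.3 CPM per kb), Mpeg1 (12.8), Aif1 (5.37), Ms4a6c (4.90), Adgre1 (3.13), Clec7a (2.63), Mrc1 (2.30), Ms4a7 (1.38), Ms4a4a (0.750) and Cd163 (0.222). In Control kidneys Mpeg1 was first (6.91 CPM per kb), ahead of Cd68 (5.78), Aif1 (2.23), Ms4a6c (1.95), Adgre1 (1.87) and Clec7a (1.78). Neighbours such as Cd68 and Mpeg1 in LOY kidneys, or Ms4a6c and Adgre1 in Control kidneys, differed by less than the SD of either. The first place of Cd68 in LOY kidneys rested on LOY animals 8 and 10: by the median kidney Mpeg1 led there too, with 12.5 CPM per kb, ahead of Cd68 with 10.4.

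Some other genes of the macrophage moved with the members. Of 29 other macrophage genes tested, 9 rose and 0 fell (median 0.95). Positive changes were seen in 25 and negative ones in 4, of which 1 had an edgeR unadjusted p under 0.05. Lyz2, the lysozyme of macrophages, rose by 1.21 ± 0.15 and the protease Ctss by 1.11 ± 0.15 (edgeR adjusted p = 0.0146 each), and the Fc receptor gene Fcgr3 by 1.14 ± 0.17 (adjusted p = 0.0166). Among 17 lineage regulators 3 rose and 0 fell. Spi1, encoding PU.1, had 17.2 ± 6.95 CPM in LOY kidneys and 7.58 ± 1.48 CPM in Control kidneys (log2 fold change 1.20 ± 0.23, adjusted p = 0.0302), with no overlap between the groups. The ligand genes Csf1 (0.91 ± 0.16, adjusted p = 0.0250) and Il34 (0.83 ± 0.16, adjusted p = 0.0297) rose as well. Their receptor gene Csf1r, itself a macrophage gene, had nearly the same level in both groups, as given above. The median of the 17 was 0.25.

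Of 9 tested Ms4a family genes outside the 10, 1 rose, and all 9 had positive changes (median 0.87). The gene that rose was Ms4a6b (1.11 ± 0.21, edgeR adjusted p = 0.0303), from the same chromosome 19 cluster. Ms4a6d (1.23 ± 0.33, adjusted p = 0.0776) and Ms4a4c (1.35 ± 0.41, adjusted p = 0.110) did not pass. Ms4a3, Ms4a5, Ms4a13 and Ms4a18 had no count in any of the 12 kidneys. Reads of near-identical stretches can be split among members of this family, so values of single Ms4a genes carry that uncertainty.

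Among 15 relatives of the other members 1 rose, the C-type lectin gene Clec12a (1.02 ± 0.21, edgeR adjusted p = 0.0343), which lies near Clec7a on chromosome 6. Lamp1 and Lamp2, relatives of Cd68 present in the lysosomes of all cells, had log2 fold changes of -0.27 ± 0.16 and -0.17 ± 0.13 and did not pass. Mrc2, a relative of Mrc1 best known from fibroblasts, had 0.55 ± 0.16 (adjusted p = 0.104). Of 13 partner genes 2 rose, the ligands Csf1 and Il34. The kinase gene Syk, which relays signals of dectin-1, had 13.3 ± 3.91 CPM in LOY kidneys and 6.89 ± 2.04 CPM in Control kidneys and missed the threshold (0.96 ± 0.22, adjusted p = 0.0508). Its downstream partners Card9 (0.64 ± 0.30), Bcl10 (0.25 ± 0.10) and Malt1 (-0.04 ± 0.11) did not pass, nor did Hmox1, which breaks down the haem taken up through Cd163 (0.60 ± 0.18, adjusted p = 0.105).

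Genes of particular macrophage states were also counted. Of 8 tested genes of perivascular-like resident macrophages 2 rose, the chemokine genes Ccl8 (2.23 ± 0.45, edgeR adjusted p = 0.0343) and Pf4 (1.45 ± 0.32, adjusted p = 0.0451); Cbr2 had 1.33 ± 0.37 (adjusted p = 0.0870). The other 6 of the 14 listed lay below the count filter. Of 11 genes of monocyte-derived cells 3 rose, Spp1 (1.25 ± 0.24), Plac8 (1.20 ± 0.25) and Ccr2 (0.63 ± 0.14), and 10 had positive changes. Spp1 is also made by kidney tubules, and its counts dominate the sum of that list.

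Some genes of all leukocytes and of T and NK cells rose beside the macrophage identity genes. All 12 pan-leukocyte genes had positive changes and 5 rose (median 0.78), with a summed level of 244 to 306 CPM in LOY kidneys and 142 to 222 CPM in Control kidneys. All 13 tested T and NK cell genes had positive changes and 4 rose, among them Zap70 (1.44 ± 0.30), Cd3g (1.62 ± 0.36) and Cd3d (1.43 ± 0.32). The 15 listed T and NK cell genes together gave 31.0 to 56.4 CPM in LOY kidneys and 18.5 to 26.2 CPM in Control kidneys. LOY animal 10, the highest kidney for 6 members, had the lowest T and NK sum of the LOY kidneys (31.0 CPM). Of 8 B cell, 10 dendritic cell and 2 neutrophil genes 0 passed (medians 0.84, 0.49 and 0.69). In the other direction, 18 of 20 proximal tubule genes had negative changes (median -0.48, 0 passed), while 12 blood endothelium genes had a median of 0.04. Relative to Ptprc, as given above, 0 of 10 members differed past the threshold; the part of each cell type in the levels of the 10 members was not tested.

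**Figure D4:**
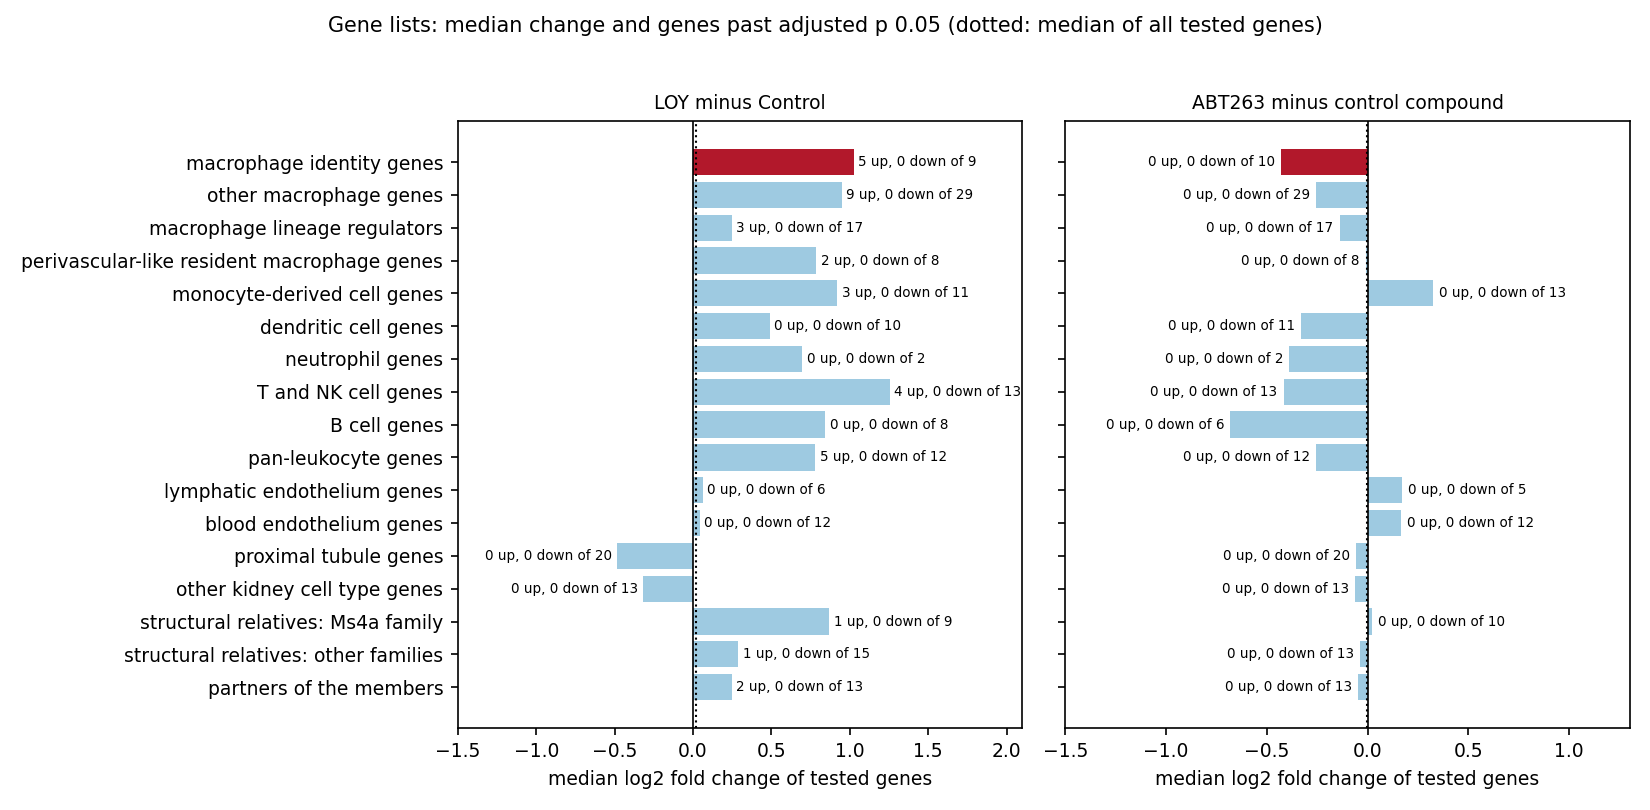
Median log2 fold change (bars) of the tested genes of each list, LOY minus Control on the left and ABT263 minus control compound on the right, with the number that passed an edgeR adjusted p of 0.05 in each direction printed beside the bar; the dotted line is the median of all tested genes. The macrophage identity genes (red) stand at 1.02 and -0.43; T and NK cell genes stand at 1.25 and -0.42 and proximal tubule genes at -0.48 and -0.06.

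Over the 12 kidneys, the 5 genes outside the 10 whose profile lay nearest to the median profile of the members were Ctss, Fcgr3, Lilrb4, Il10ra and Osmr. Their root mean square distances were 0.162, 0.172, 0.197, 0.197 and 0.201 in log2 CPM; 14400 genes averaging 1 CPM or more were searched. Of the members, Mpeg1 lay nearest (0.119) and Ms4a4a farthest (0.883).

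ABT263 and the control compound were compared in LOY mice to see what a senolytic changes in these kidneys. Of the 10 macrophage identity genes 0 passed the test; 9 had negative changes, as did 50.6% of all tested genes, and Cd68 a positive one, with a median log2 fold change of -0.43 against -0.00 over all genes. The background was 0% of 16956 tested genes past an edgeR adjusted p of 0.05 (1002 genes, 5.91%, at an unadjusted p under 0.05). DESeq2 called 44 genes and voom 11 of all genes, with 0 members among them. Mpeg1 (unadjusted p = 0.0199) and Clec7a (unadjusted p = 0.0344) were the 2 members under 0.05 before adjustment. Only Mpeg1 had groups that did not overlap, which was so, as lower, for 2.34% of all genes.

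**Figure D5:**
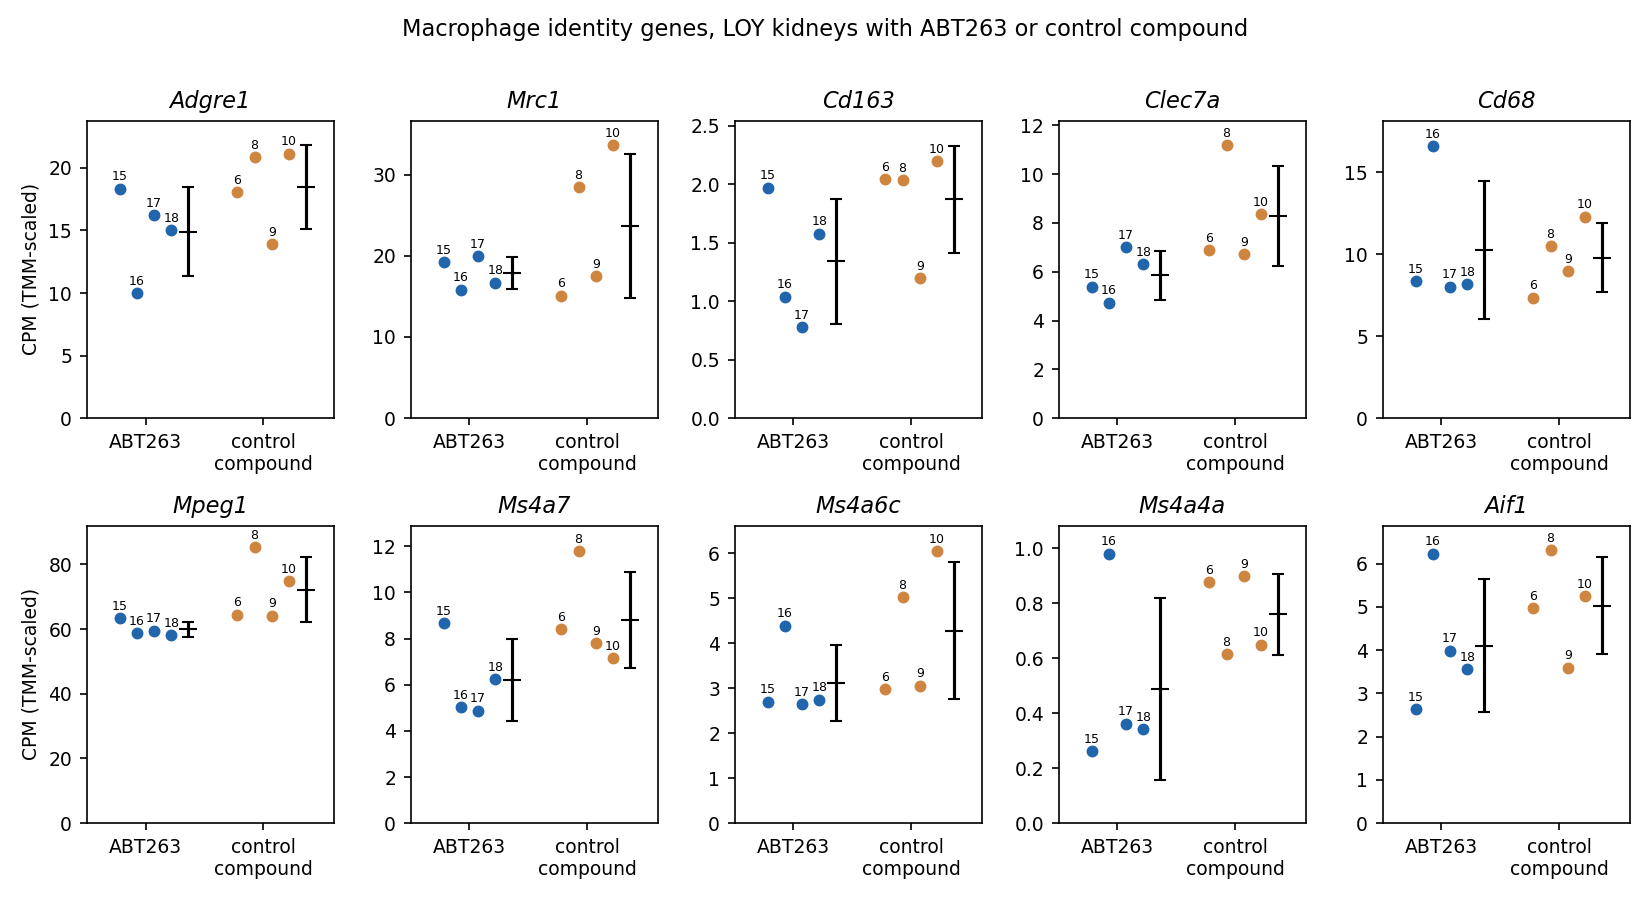
TMM-scaled CPM (linear axis) of the 10 macrophage identity genes in each LOY kidney with ABT263 (blue, left) and with the control compound (light brown, right), labelled with the animal number; the bar is the mean with SD, n = 4 each. Mpeg1 points do not overlap; ABT263 animal 16 stands above the other ABT263 kidneys in Cd68, Ms4a6c, Ms4a4a and Aif1.

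Mpeg1, the perforin-2 gene, had 63.3, 58.7, 59.6 and 58.2 CPM in ABT263 animals 15, 16, 17 and 18, and 64.5, 85.5, 64.2 and 74.9 CPM in control-compound animals 6, 8, 9 and 10. All ABT263 kidneys were lower than all control-compound kidneys, but control-compound animals 6 and 9 were close to ABT263 animal 15. The log2 fold change was -0.27 ± 0.10 (edgeR adjusted p = 0.753). Clec7a, encoding dectin-1, had 5.39, 4.73, 6.99 and 6.31 CPM in the ABT263 kidneys, against 6.90, 11.2, 6.71 and 8.35 CPM in the control-compound kidneys. The groups overlapped through ABT263 animal 17, and the change of -0.50 ± 0.21 did not pass (edgeR adjusted p = 0.827).

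The other receptors had wide spreads. Mrc1, the mannose receptor gene, had 19.2, 15.8, 19.9 and 16.7 CPM in the ABT263 kidneys, against 15.1, 28.5, 17.5 and 33.6 CPM in the control-compound kidneys. Control-compound animals 8 and 10 were high, animal 9 lay among the ABT263 kidneys and animal 6 below them (-0.40 ± 0.23, edgeR adjusted p = 0.847). Adgre1, encoding F4/80, had 18.3, 9.98, 16.2 and 15.0 CPM in the ABT263 kidneys, against 18.1, 20.9, 13.9 and 21.1 CPM in the control-compound kidneys. ABT263 animal 16 was the lowest kidney (-0.31 ± 0.19, adjusted p = 0.847). Cd163, the haemoglobin scavenger gene, had 1.97, 1.04, 0.777 and 1.58 CPM in the ABT263 kidneys, against 2.05, 2.04, 1.20 and 2.20 CPM in the control-compound kidneys, and the groups overlapped (-0.49 ± 0.34, adjusted p = 0.854).

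Among the remaining members, Cd68 stood apart from the others through 1 kidney. Cd68 had 8.35, 16.6, 8.03 and 8.16 CPM in the ABT263 kidneys, against 7.37, 10.5, 8.99 and 12.3 CPM in the control-compound kidneys. ABT263 animal 16 was the highest of all 8, and without it the log2 fold change was -0.26, against 0.07 ± 0.26 with it (edgeR adjusted p = 0.978). Aif1, the IBA1 gene, had 2.63, 6.23, 3.99 and 3.57 CPM in the ABT263 kidneys, against 4.97, 6.30, 3.60 and 5.25 CPM in the control-compound kidneys (-0.29 ± 0.27, adjusted p = 0.891). Here too ABT263 animal 16 was highest of its group. Of the MS4A genes, Ms4a7 averaged 6.20 ± 1.76 CPM with ABT263 and 8.79 ± 2.07 CPM with the control compound (SD, n = 4 each; -0.51 ± 0.23, adjusted p = 0.827). Ms4a6c averaged 3.12 ± 0.847 CPM with ABT263 and 4.28 ± 1.51 CPM with the control compound (-0.46 ± 0.29, adjusted p = 0.847). The antisense gene BE692007, which overlaps exons of Ms4a6c, held 115 counts over the ABT263 kidneys and 202 over the control-compound kidneys. Ms4a6c itself held 208 and 329, and whether the counting used strand is not stated. The part of antisense reads in its level was not tested. Ms4a4a, at 0.487 ± 0.332 CPM with ABT263 and 0.760 ± 0.148 CPM with the control compound, had a change of -0.61 ± 0.45 (adjusted p = 0.858).

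Of all 8 kidneys ABT263 animal 16 was both the lowest in Adgre1 and the highest in Cd68. It also had the highest summed level of the monocyte-derived cell genes, 17981 CPM, against 1553 to 2253 CPM in the other ABT263 kidneys and 2258 to 3307 CPM in control-compound kidneys. Nearly all of that sum was Spp1, the osteopontin gene that tubules also express, at 17771 CPM in this kidney, 1410 to 2084 CPM in the other ABT263 kidneys and 2113 to 3132 CPM in control-compound kidneys. The 15 genes besides Spp1 summed to 210.0 CPM in animal 16, to 143 to 169 CPM in the other ABT263 kidneys and to 145 to 175 CPM in control-compound kidneys. The part of tubular or monocyte-derived cells in its Cd68 level was not tested. Ratios of the members to Adgre1 passed in 0 of 9 cases (the lowest exact two-sided permutation p was 0.486; the smallest p that 4 against 4 allows is 0.0286). Per kilobase of exon, Mpeg1 (13.8 CPM per kb with ABT263 and 16.7 with the control compound) and Cd68 (8.19 and 7.79) led, and Ms4a4a (0.583 and 0.910) and Cd163 (0.246 and 0.342) were lowest.

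The lists around the members held 0 genes past the threshold in the ABT263 comparison. The 29 other macrophage genes had a median of -0.26, with 22 negative, and the smallest p belonged to Lyz2 (-0.84 ± 0.19, edgeR adjusted p = 0.648). Spi1 had -0.38 ± 0.22 (adjusted p = 0.847), Csf1 -0.18 ± 0.18 and Il34 0.07 ± 0.38. All 13 T and NK cell genes (median -0.42) and 10 of 12 pan-leukocyte genes (median -0.26) had negative changes as well. So did 5 of 6 tested B cell genes (median -0.68). The 10 listed B cell genes together gave 18.1 to 37.2 CPM in ABT263 kidneys and 42.5 to 79.3 CPM in control-compound kidneys. By the median deviation of the 6 tested B cell genes the groups overlapped, with -0.04 in ABT263 animal 18 and -0.10 in control-compound animal 10. Positive changes were seen for 10 of 13 monocyte-derived cell genes (median 0.32) and all 12 blood endothelium genes (median 0.16). The median deviation of the 13 monocyte-derived cell genes from their own means (log2 CPM) was 0.64 in ABT263 animal 16. It was -0.11 to -0.03 in the other ABT263 kidneys and -0.05 to 0.11 in control-compound kidneys. Summed pan-leukocyte levels were 190 to 280 CPM in ABT263 kidneys and 200 to 314 CPM in control-compound kidneys. The 10 Ms4a relatives had a median of 0.02. Over the 8 kidneys the genes nearest to the members' median profile were Klk1b9, Rassf4, Cd74, Cybb and Mmp14. Their distances were 0.0447, 0.102, 0.105, 0.109 and 0.111 in log2 CPM among 15497 genes. Of the members Mpeg1 was nearest again (0.0901), but Klk1b9 lay nearer than any member. Among so many genes some can lie near a profile by chance, so nearness alone does not mark a macrophage gene.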

How the data were processed

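Per the labels' protocols, kidney RNA was sequenced by Novogene (NovaSeq X). Per the submitters' processing notes, the build was mm10. The authors deposited 2 tables of gene counts, used as counts after every value was found to be a whole number. The sources used here name no aligner, counter, annotation or strand setting. Reads without a gene (0.223% to 0.401% of the LOY table) were left out. Symbols were matched through RefSeq synonyms; coordinates and exon lengths are from GENCODE M21.

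Each table was fitted alone with edgeR 4.0.16 in R 4.3.3 over all its genes (quasi-likelihood F test, robust, without covariates, on TMM-scaled libraries; genes were kept by filterByExpr at a count of 10 and a total of 15). P-values were adjusted by Benjamini-Hochberg and called at 0.05. Each SE was taken as the absolute log2 fold change divided by the root of its F statistic. CPM are TMM-scaled, given as mean ± SD or per kidney, and log2 CPM use a prior count of 2. Ratios between genes were tested by exact two-sided permutation over all 924 or 70 splits of the kidneys, adjusted over the ratios. DESeq2 1.42.0, limma 3.58.1 (voom), other scalings and filters and leaving out kidneys were alternatives.

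The members, gene lists, tests and alternatives were chosen with earlier results of these data known. Named were all 10 members, up to 3 genes of smallest p from each list (relatives and partners freely), and per table the 5 genes nearest to the members' median profile. Lamp1, Lamp2 and further relatives are named under that freedom. On simulated counts for the LOY comparison (14821 genes) edgeR recovered 25.4%, 65.2% and 95.5% of 1.5-, 2- and 4-fold changes. For the ABT263 comparison (16714 genes) it recovered 26.6%, 59.1% and 86.4%. Of its calls, 2.38% fell on unchanged genes in the LOY comparison and 8.13% in the ABT263 comparison. The simulated LOY counts held 67, 66 and 66 genes changed by these folds, and the simulated ABT263 counts 64, 66 and 66. Recovery after adjustment depends on how many genes change, so these shares are not the power of the real comparisons. Each gene was drawn independently, so shifts shared by many genes of 1 kidney were not simulated. Replicates were checked as separate libraries: the lowest median squared count difference was 1.81 times its Poisson expectation over 30 pairs in the LOY table and 1.54 times over 12 pairs in the ABT263 table. Nothing says more of their independence than the animal number. The p-values set group differences against the spread between these animals and hold only if the animals are independent.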

Additional observations from a re-analysis of the deposited data

Results flagged for a closer look

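The search for a kidney far from the rest of its group covered 44 sets (a gene, or the members' median deviation, in a group). Of these, 4 met the rule, where chance gives about 1 in 20, or 2.2. Sets that share kidneys are not independent, so the 2 counts are only roughly comparable. All 4 sets that met the rule were single genes in the ABT263 table. In ABT263 animal 16, Cd68 stood at 16.6 CPM, against 8.35 CPM in the nearest kidney of its group. In the same animal Ms4a6c stood at 4.39 CPM (nearest 2.74 CPM) and Ms4a4a at 0.981 CPM (nearest 0.363 CPM). The Ms4a6c value carries the antisense overlap given above. The Ms4a4a value rests on 17 counts, against 4, 7 and 5 in ABT263 animals 15, 17 and 18. Control-compound kidneys had 13 to 15 counts of Ms4a4a. In control-compound animal 9, Cd163 stood low at 1.20 CPM (nearest 2.04 CPM).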

How the results depend on the processing

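In the LOY comparison the members' median log2 fold change of 1.02 stayed at 0.90 to 1.13 as each kidney was left out and at 0.83 to 1.10 under the other settings. The count of 5 members was 7 with DESeq2 and with voom, 6 at an adjusted p of 0.1, 3 with library totals alone, 0 with a term for animal number above 10, 1 without LOY animals 8 and 10, and 0 to 6 as each kidney was left out. Over all genes, 176 calls became 105 with totals alone, 866 with DESeq2, 1062 with voom, 549 at an adjusted p of 0.1, 0 with the number term, 451 among animals above 10 alone, 29 without LOY animals 8 and 10, and 0 to 607 as each kidney was left out. Ratios that passed went from 0 to 6 with Csf1r as the base. Cd163 reversed to -0.084 with voom. In the ABT263 comparison 0 members passed in any of the 19 other settings, and the median of -0.43 stayed at -0.52 to -0.26 as each kidney was left out. Over all genes, 0 calls became 44 with DESeq2, 11 with voom, 388 without control-compound animal 6 and ABT263 animal 16, and 0 to 9 as each kidney was left out. Cd68 reversed to -0.25 with voom, -0.04 without control-compound animal 6, -0.26 without ABT263 animal 16 and -0.37 without both; as each kidney was left out it ranged from -0.26 to 0.20. The causes were not tested. No paired analysis was possible because no animal number is in both groups of either comparison. Depth limits Ms4a4a, which without the filter had 0.96 (adjusted p = 0.457) in LOY kidneys, and Cd163.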
